A study of Homo sapiens with 4 samples.

Results

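The regions described here are the broad ChIP-seq peaks of human chromosome 19 that lie outside zinc finger genes of the ZNF series. A peak was a member if it lay on chromosome 19 and shared no base with a RefSeq gene whose symbol is ZNF followed by a number. There were 7210 such peaks among the 7718 peaks of the chromosome in the list of replicate 1, and 3976 among 4242 in the list of replicate 2, or 93.4% and 93.7%. The whole lists hold 166628 and 93618 peaks. Since the peak calls themselves chose the members, all values below describe them, and none was tested.

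Chromatin was precipitated with an HA antibody (Abcam) from untreated cells of wild-type genotype, a subclone of the human triple-negative breast cancer line MDA-MB-231. PD-L1 is the target that the labels give. They give 2 PD-L1 ChIP samples and 2 Input samples, numbered 1 and 2, and each ChIP sample came as 1 list of broad peaks. The sources used here do not say how the tag entered the cells, and no mock precipitation was analysed here, so binding and target-free recovery of chromatin cannot be told apart.

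PD-L1 is a membrane protein encoded by CD274 and is best known as the ligand of PD-1, an inhibitory receptor of T cells. Chromosome 19 is the most gene-dense human chromosome, with long arrays of duplicated genes. Its ZNF arrays encode repressors of transposable elements and carry repressive chromatin over many of their coding ends, which sets them apart from the remaining genes of the chromosome. A broad peak is a stretch in which a caller links neighbouring enriched windows, so its edges are less sharp than those of a transcription factor peak.

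The following promoters show what the peak calls met on the chromosome. Each is the 250 bases before the gene's start, read on the gene's strand from RefSeq's GRCh38.p14 (the build of hg38), with each CG dinucleotide in capitals. CREB3L3 (chr19:4153381-4153630, plus strand), a membrane-bound transcription factor of liver and intestine, lay whole within a region joined from overlapping peaks of both lists. The replicate 2 peak covered all of this promoter, and the replicate 1 peak (chr19:4153514-4154051) only part of it. ANKLE1 (chr19:17281651-17281900, plus strand), an endonuclease, had the strongest peak of replicate 1 alone that spans a whole promoter among those richest in G and C. APOC1 (chr19:44914422-44914671, plus strand), an apolipoprotein, had the strongest peak of replicate 2 alone that spans a whole promoter, whatever its GC content. LILRB2 (chr19:54280629-54280878, minus strand), an inhibitory receptor of myeloid cells, and PSG5 (chr19:43186537-43186786, minus strand), a pregnancy-specific glycoprotein, lay in the 2 longest stretches without a peak in either list that hold several genes outside the ZNF series.
CREB3L3: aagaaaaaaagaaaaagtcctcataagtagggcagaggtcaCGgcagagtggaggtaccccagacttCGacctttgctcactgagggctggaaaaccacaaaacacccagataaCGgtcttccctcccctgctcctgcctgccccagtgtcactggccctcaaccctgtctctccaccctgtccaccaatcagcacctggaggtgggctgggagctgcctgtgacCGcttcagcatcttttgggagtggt
ANKLE1: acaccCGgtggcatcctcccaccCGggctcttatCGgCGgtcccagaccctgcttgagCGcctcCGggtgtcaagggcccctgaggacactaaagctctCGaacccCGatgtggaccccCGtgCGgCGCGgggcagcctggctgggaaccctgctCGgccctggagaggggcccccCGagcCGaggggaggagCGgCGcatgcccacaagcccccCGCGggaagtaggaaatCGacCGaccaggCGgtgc
APOC1: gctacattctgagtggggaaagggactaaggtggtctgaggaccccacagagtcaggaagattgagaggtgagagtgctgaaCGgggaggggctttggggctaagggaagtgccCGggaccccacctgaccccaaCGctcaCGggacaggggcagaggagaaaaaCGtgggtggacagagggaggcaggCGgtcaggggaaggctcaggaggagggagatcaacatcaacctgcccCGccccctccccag
LILRB2: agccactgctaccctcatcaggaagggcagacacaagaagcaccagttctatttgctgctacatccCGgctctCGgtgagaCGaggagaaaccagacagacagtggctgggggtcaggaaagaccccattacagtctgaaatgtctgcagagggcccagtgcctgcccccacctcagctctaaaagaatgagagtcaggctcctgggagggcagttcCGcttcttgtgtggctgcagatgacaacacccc
PSG5: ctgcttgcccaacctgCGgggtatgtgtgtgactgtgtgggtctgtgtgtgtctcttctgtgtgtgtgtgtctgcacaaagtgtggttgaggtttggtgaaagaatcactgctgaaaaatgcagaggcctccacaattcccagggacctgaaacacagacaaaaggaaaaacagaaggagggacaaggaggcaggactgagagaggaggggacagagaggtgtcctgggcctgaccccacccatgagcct
The CREB3L3 promoter held 4 CG dinucleotides and 56% G and C. It met a replicate 1 peak of fold enrichment 3.90 and a replicate 2 peak of fold enrichment 2.48, both as the authors' caller gave them. The ANKLE1 promoter held 22 CG dinucleotides and 71.2% G and C, and its replicate 1 peak had a fold of 4.24 and a −log10 q of 3.33. The APOC1 promoter held 7, with 62.4% G and C, and its replicate 2 peak had a fold of 3.43 and a −log10 q of 3.41. The promoters of LILRB2 and PSG5 held 4 and 1, with 56.4% and 53.6% G and C, close to that of CREB3L3.

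Peaks were denser on chromosome 19 outside ZNF genes than in any of the stretches compared with it. Replicate 1 had 141.7 and replicate 2 had 78.1 peaks per Mb, over 50.9 Mb. Inside the 304 ZNF-named genes, which cover 7.70 Mb or 13.1% of the chromosome, there were 66.0 and 34.5 peaks per Mb. Chromosomes 17 and 11, the next in protein-coding gene density, had 106.5 and 57.9 peaks per Mb and 81.1 and 43.9 peaks per Mb. Over chromosomes 1 to 22 and X the densities were 54.97 and 30.9. Apart from the ZNF genes, protein-coding genes followed the same order, with 22.8 per Mb on chromosome 19 outside ZNF genes, 13.9 on chromosome 17, 9.60 on chromosome 11 and 6.54 over the genome. The ZNF genes departed from it, since their 7.70 Mb hold 250 ZNF-named protein-coding genes, a higher gene density than that of the members' sequence.

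The members were modest in strength. Median widths were 699.5 and 658 bp, against 610 and 636 bp over the genome. Their median fold was 3.26 and 2.25, against 3.14 and 2.27 over the genome. The highest −log10 q among them was 5.65 in replicate 1 and 5.17 in replicate 2, and the medians were 1.99 and 1.81. Peaks covered 14.9% and 6.08% of the sequence outside ZNF genes. At the edge of the rule, a replicate 1 peak was left out because 6 bp of it lay in ZNF615, and another was kept at 35 bp from ZNF432. In replicate 2 a peak with 42 bp in ZNF224 was left out and one at 25 bp from ZNF324 was kept.

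Along the chromosome, peak number followed gene number with clear exceptions. Of 59 bins of 1 Mb, 51 held at least 1 protein-coding gene outside the ZNF series. In these the median bin held 142 peaks of replicate 1, with a range of 0 to 253, and 79 of replicate 2, with a range of 1 to 141. Spearman's rho between peaks and genes was 0.63 in replicate 1 and 0.55 in replicate 2 over these 51 bins (Pearson's r 0.63 and 0.59), as a description, since neighbouring bins share gene families, base composition and the same libraries. The same bins ranked much alike in both lists, with a rho of 0.93. The rule leaves out peaks that overlap ZNF genes, so bins with many of these hold less sequence to count. Taken per Mb of the bin outside ZNF genes, peaks had a rho of -0.46 in replicate 1 and -0.55 in replicate 2 with the number of ZNF genes.

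The densest bins of both lists lay in 3 separate places. The bin from 18 to 19 Mb held 250 and 141 peaks beside 33 genes, and its best-ranked gene was IFI30, a lysosomal thiol reductase of antigen processing. The bin from 38 to 39 Mb held 234 and 134 peaks beside 30 genes, among them RYR1, the calcium release channel of skeletal muscle. The bin from 45 to 46 Mb held 222 and 137 peaks beside 37 genes, led by RELB, a subunit of NF-kB. Peaks covered 37.3% of the bin from 18 to 19 Mb in replicate 1 and 12.2% in replicate 2, the highest cover of any bin in both. The bin from 1 to 2 Mb had the most peaks of replicate 1, 253, but with 96 ranked only 18 in replicate 2.

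Some bins had many peaks and few genes. The bin from 33 to 34 Mb, with 10 genes, held 207 and 116 peaks, and 2 of its genes stood out. PEPD, the peptidase prolidase, had 40 peaks of replicate 1 and 16 of replicate 2 over its body, and CHST8, a sulfotransferase, had 36 and 23. The bin from 29 to 30 Mb, with 7 genes that include CCNE1, the gene of cyclin E, held 163 and 102 peaks. The bin from 31 to 32 Mb held 108 and 69 peaks beside 1 gene, TSHZ3, a transcription factor with 26 and 17 of them. Even the bin from 28 to 29 Mb, with no gene counted, held 79 and 55.

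Other bins had few peaks. From 20 to 25 Mb, a ZNF array that ends at the centromere, members numbered 4 in replicate 1 and 28 in replicate 2. The bin from 54 to 55 Mb stood apart, since it held 41 genes, the third highest number, and 5 peaks of replicate 1 and 1 of replicate 2. All of these peaks lay before base 54024772, in and just beyond CACNG6, a calcium channel subunit gene that spans the edge of the bin, and a stretch without peaks began there. The other 16 gene-dense bins held 122 to 253 and 65 to 141 peaks. Without this bin the rho of peaks and genes was 0.71 in replicate 1 and 0.64 in replicate 2.

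**Figure D1:**
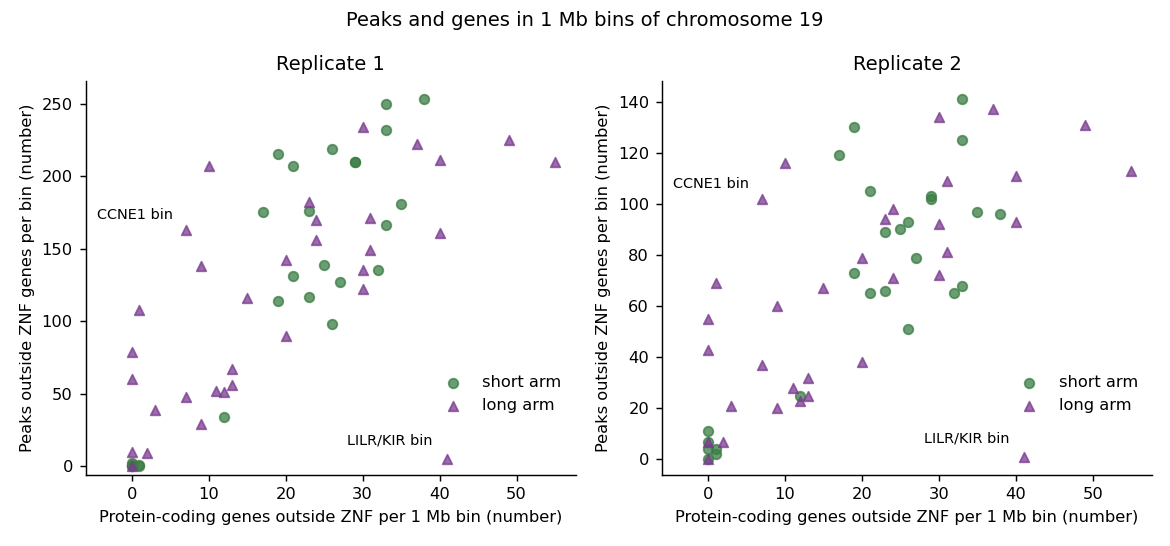
Each point is a 1 Mb bin of chromosome 19, with its protein-coding genes outside the ZNF series on the x axis and its peaks outside ZNF genes on the y axis, for replicate 1 (left) and replicate 2 (right); circles are the short arm and triangles the long arm. Peaks went up with genes, and the labelled bins depart from this: 41 genes with 5 and 1 peaks (LILR/KIR), and 7 genes with 163 and 102 peaks (CCNE1).

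The arms differed little in density. The short arm, taken up to the middle of the longest gene-free stretch (chr19:24179012-27681071), had 130.9 and 69.8 peaks per Mb in replicates 1 and 2. The long arm had 116.8 and 66.3. The ratio of short to long arm was 1.09 ± 0.05 (SD, n = 2 lists). It was 1.05 with ZNF genes and gene-free stretches taken out of the arm lengths. The arms held 20.2 and 19.5 protein-coding genes per Mb outside the ZNF series. Sharing also lay close, at 33.8% and 64.1% of the short arm's peaks and 35.6% and 64.3% of the long arm's.

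Within the arms sharing was uneven. Between 0 and 8 Mb, 27.4% of the replicate 1 peaks overlapped a replicate 2 peak by at least 1 bp (95% Wilson interval 25.2 to 29.7), while from 16 to 20 Mb 41.9% did (38.7 to 45.2). These intervals cover counting error only. Replicate 2 had 59.6% and 77.9% of its peaks shared in those stretches. Between 27 and 33 Mb, where 17 genes lie, the shares were 27.2% and 44.9%. The stretch from 38 to 50 Mb, with 349 genes, had 39.2% and 72.6%. The stretches were chosen after their values were seen.

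Gene ends were met more often on chromosome 19 than over the genome, and so was sequence at large. Peaks of replicates 1 and 2 covered 14.9% and 6.08% of the sequence outside ZNF genes, against 4.94% and 2.33% over the genome. What part this cover has in the shares of gene ends was not tested. A gene-end window reached 1 kb to each side of both ends of a gene. Of the 1160 protein-coding genes outside the ZNF series, 976 (84.1%) had a replicate 1 peak in such a window and 636 (54.8%) a replicate 2 peak, against a background of 69.2% and 37.2% over the 19821 protein-coding genes of chromosomes 1 to 22 and X. A shared region, the union of overlapping peaks with at least 1 from each list, lay at an end of 619 genes (53.4%), against 33.1% over the genome. A union can reach an end through 1 list alone: both lists had a peak in the window itself at 539 of the 619 genes, replicate 1 alone at 76 and replicate 2 alone at 4. The number also rests on an overlap of 1 bp, and was 182 with a reciprocal overlap of 50%, 184 when each list kept its upper 50% by fold and 154 among peaks whose −log10 q reached 2. It lay over the body of 793 genes (68.4%), against 49.1%. Among the 250 ZNF-named protein-coding genes of the chromosome, 63 (25.2%) had a shared region at an end, below the share over the genome. In both lists at once, though not always in 1 region, 606 genes had a gene-end peak, which is 62.1% of the genes of replicate 1 and 95.3% of those of replicate 2. Neither list had one at 154 genes, replicate 1 alone had one at 370 and replicate 2 alone at 30.

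Seen from the peaks, 20.5% of the replicate 1 members and 17.8% of the replicate 2 members lay in a gene-end window. With windows of all protein-coding genes, ZNF included, the shares were 20.7% and 18.0%. By that count chromosome 17 had 15.3% and 12.5%, and the genome 10.9% and 8.46%. Peaks in the chromosome's ZNF genes had 32.7% and 26.7%, above the members. Most members, 56.6% and 56.0%, lay inside protein-coding genes away from their ends. A further 5.63% and 6.59% lay in other genes, and 17.3% and 19.7% outside any gene. Peaks at gene ends were wider than those away from them, with medians of 1149 and 625 bp in replicate 1 and 806.5 and 619.5 bp in replicate 2. Their folds were close, 3.30 and 3.25 in replicate 1 and 2.21 and 2.26 in replicate 2.

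The replicates differed in how far their cover rose at the start of the gene. RefSeq's promoter table gave a strand and a start for 966 of the 1160 genes. Replicate 1 covered the start itself in 58.2% of these, 18.2% at 5 kb upstream and 24.4% at 5 kb downstream. Replicate 2 covered the start in 12.8%, with 7.25% and 8.49% at those distances, so its profile rose far less. Over the genome the start was covered in 44.8% of genes in replicate 1 and in 10.1% in replicate 2. The flanks were lower there as well. At 5 kb upstream and downstream, cover over the genome was 9.14% and 11.5% in replicate 1, and 3.78% and 4.12% in replicate 2. At the far end of the gene, cover reached 40.7% in replicate 1 at 250 bases inside it and 13.8% in replicate 2 at 500 bases inside it.

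Among the 782 genes of at least 5 kb with a known strand, 79.9% had a replicate 1 peak within 1 kb of the start and 66.5% within 1 kb of the far end. Replicate 2 had 38.5% and 33.8%. Over the genome the starts had 67.8% and 27.1%, and the far ends 35.3% and 18.3%. In both lists the gap to the genome was wider at the far ends than at the starts. Genes lie close together here, and an end of 1 gene is often near that of another. Where no end of another protein-coding gene lay within 5 kb, 74.8% of 416 starts and 54.9% of 350 far ends had a replicate 1 peak. For replicate 2 these shares were 35.3% and 27.7%. Equally isolated ends over the genome had 63.0% at 9440 starts and 27.5% at 8890 far ends in replicate 1, and 25.1% and 15.0% in replicate 2.

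**Figure D2:**
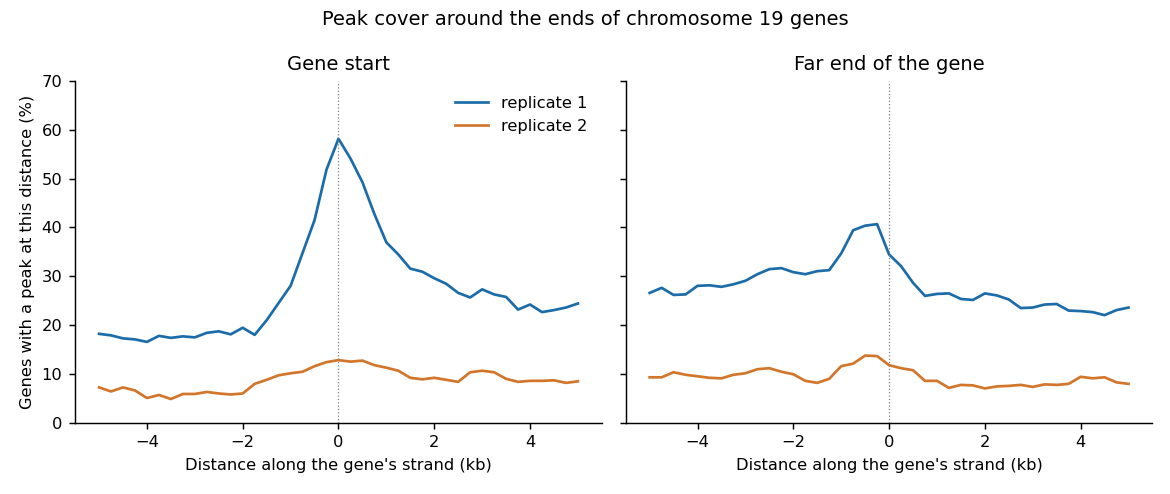
The share of 966 chromosome 19 genes with a peak (y axis, %) is drawn against the distance from the gene's start (left) and from its far end (right), along the gene's strand in kb, for replicate 1 (blue) and replicate 2 (orange). Replicate 1 peaks at the start at 58.2% and just inside the far end at 40.7%, and replicate 2 stays at or under 13.8% at both.

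Base composition separated the lists at promoters. The promoters were the 300 bases from 250 before to 50 after the start. Split into 5 groups of near-equal size by GC content, low to high, a replicate 1 peak met 36.8%, 67.9%, 76.7%, 78.2% and 62.9% of the promoters. A replicate 2 peak met 16.6%, 29.02%, 17.6%, 14.5% and 7.22%. Replicate 1 was thus highest in group 4 and replicate 2 in group 2. The promoters of the genome, divided at the same GC limits, gave 29.1%, 61.3%, 66.4%, 67.7% and 52.9% for replicate 1 and 11.6%, 21.1%, 17.8%, 13.4% and 6.999% for replicate 2, the same shape at mostly lower values.

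**Figure D3:**
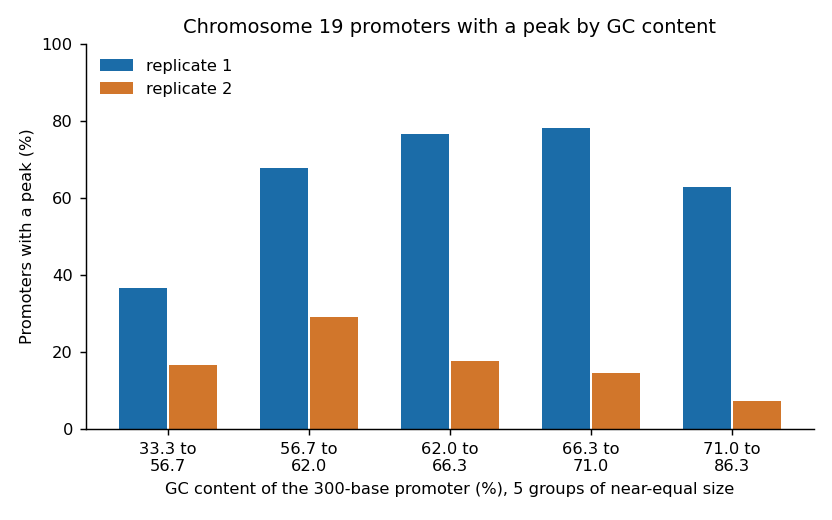
Bars give the share of chromosome 19 promoters with a peak (y axis, %) in 5 groups of promoter GC content (x axis, %), for replicate 1 (blue) and replicate 2 (orange). Replicate 1 runs between 36.8% and 78.2% with its top in group 4, and replicate 2 between 7.22% and 29.02% with its top in group 2.

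Promoters in shared regions were richer in CG dinucleotides than those without a peak. The 318 promoters that met a shared region held a median of 24 CG dinucleotides and an observed to expected CpG ratio of 0.78, and the 315 without a peak held 12 and 0.45. GC content was 64.7% and 61.0%. Over all 966 promoters, only 136 met a peak of each list, fewer than the 318. These 136 held a median of 20.5 CG dinucleotides and a ratio of 0.74. This was close to the medians of all 966 promoters, 21 and 0.73. By single list, the 623 promoters with a replicate 1 peak held 24 and 0.79, and the 164 with a replicate 2 peak 19 and 0.71. The letters GGGCGG, the core of the GC box, stood on either strand in 73.6% of the promoters in shared regions, in 54.9% of those without a peak and in 65.9% of all 966. CCAAT stood in 45.3%, 30.5% and 37.1%, TATAAA in 5.03%, 12.4% and 8.07%, TGACTCA in 3.14%, 3.81% and 3.73%, and CACGTG in 10.4%, 5.08% and 8.80%. The 28 promoters with a peak of replicate 2 alone had a CpG ratio of 0.34, and the 487 with a peak of replicate 1 alone had 0.80. A match describes letters and not a bound site.

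Sharing between replicates was higher in bins with more genes when bins were grouped, and varied from bin to bin. Over the genome, 28.7% of the replicate 1 peaks and 52.0% of the replicate 2 peaks overlapped the other list. Among members these shares were 34.8% (33.7 to 35.9) and 64.2% (62.7 to 65.7), above those of the chromosome's ZNF genes, 29.5% (25.7 to 33.6) and 53.8% (47.8 to 59.7). Chromosome 17 had 34.2% and 65.0%, within the counting error of the members. Chromosome 11, with 9.60 protein-coding genes per Mb against 22.8 in the members' sequence, had 33.4% and 62.9%. The list of replicate 2 is the shorter, and these shares depend on list length. With equal numbers of peaks taken from both lists the shares were 37.8% and 47.4%.

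The 8 bins without a gene had 26.3% and 31.5% of their peaks shared. The 17 bins with 1 to 17 genes had 31.5% and 55.1%, the 17 with 19 to 29 genes had 34.3% and 65.6%, and the 17 with 30 to 55 genes had 37.0% and 69.6%. The rise was thus steeper in replicate 2. Bin by bin, Spearman's rho between the shared share and the number of genes was 0.26 in replicate 1 (50 bins) and 0.45 in replicate 2 (51 bins), as a description. On the short arm it was -0.30 in replicate 1 (21 bins) and 0.53 in replicate 2 (22 bins). Both lists also cover more of the gene-dense bins, and the part this has in the sharing was not tested. In bases, the peaks of replicate 1 lay in replicate 2 peaks for 17.4%, 17.9%, 18.9% and 19.5% of their length, in order of gene density. The replicate 2 list covered 1.65%, 3.99%, 6.75% and 7.97% of the same bins. The ratio of these values fell with gene density, from bins without a gene at 10.6 through 4.48 and 2.80 to the densest bins at 2.44.

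In replicate 2, sharing at gene ends was level across classes of gene density while sharing away from them rose. Replicate 2 peaks at gene ends were shared in 78.9%, 79.6% and 79.2% of cases in the 3 classes of bins with a gene, from low to high density. Those away from gene ends were shared in 52.4%, 62.7% and 66.7%. For replicate 1 the shares were 39.4%, 39.4% and 43.3% at gene ends and 30.4%, 33.04% and 34.8% away from them, so that both rose by similar amounts. The number of peaks per gene ran the other way, at 9.04, 6.77 and 4.95 in replicate 1 and 5.29, 3.57 and 2.70 in replicate 2. The share of genes with a shared region at an end was 49.0%, 51.6% and 55.5%, while median gene length was 16.1, 14.6 and 11.5 kb.

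**Figure D4:**
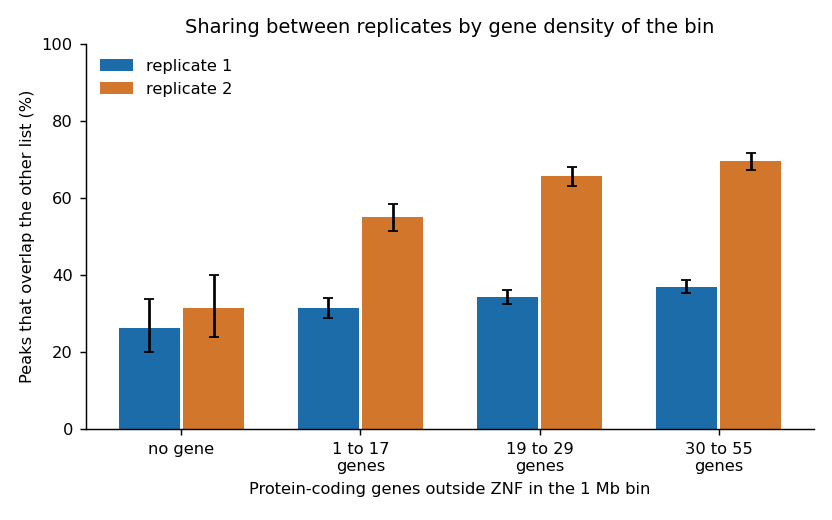
Bars give the share of peaks that overlap the other list by at least 1 bp (y axis, %) in bins grouped by their number of protein-coding genes (x axis), for replicate 1 (blue) and replicate 2 (orange), with 95% Wilson intervals that cover counting error only. Replicate 1 runs from 26.3% to 37.0% and replicate 2 from 31.5% to 69.6%.

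There were 2387 shared regions outside ZNF genes, with a median width of 1420 bp, and 628 of them (26.3%) lay at a gene end. Shared peaks were wider than unshared ones, with medians of 1009 and 589 bp in replicate 1 and 751 and 496 bp in replicate 2. Their fold was 3.28 against 3.25 in replicate 1 and 2.21 against 2.35 in replicate 2. Over the regions the folds of the replicates went their own ways, with a Spearman's rho of 0.02.

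Of the 5 best-ranked regions, all but the second lay inside protein-coding genes away from their ends. So did 56.6% and 56.0% of all members in replicates 1 and 2. The best-ranked (chr19:32722046-32722389) lay in TDRD12, a Tudor domain gene of the germline piRNA pathway, with a fold of 4.19 in replicate 1 and 2.91 in replicate 2. ATCAY, a gene of the nervous system mutated in Cayman ataxia, held 2 of the best 5, with folds of 4.16 and 2.68 (chr19:3890843-3891761) and 4.52 and 2.62 (chr19:3893637-3894094). DHX34, an RNA helicase of nonsense-mediated decay, held another, with 3.87 and 2.93 (chr19:47359780-47361133). The second-ranked (chr19:8193923-8195727; 4.22 and 2.70) met no RefSeq gene.

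At gene ends the leading regions belonged to varied genes. EBI3, which encodes a shared subunit of heterodimeric cytokines, came first, with 4.15 in replicate 1 and 2.62 in replicate 2 (chr19:4236702-4237224). DOCK6, an exchange factor for Rac and Cdc42, had 3.85 and 2.74 (chr19:11263436-11266399). PDCD2L had 3.70 and 2.83, KCNN1, a calcium-activated potassium channel, 3.68 and 2.76, and the arrestin-domain gene ARRDC5 4.11 and 2.50. NFIC, a transcription factor of the nuclear factor I family, had 4.09 and 2.50. The microtubule-binding MAP1S had 4.55 and 2.46, CREB3L3 3.90 and 2.48, the mucus protein FCGBP 3.66 and 2.56 and the non-muscle myosin MYH14 4.06 and 2.43. These folds, like those given for genes below, are the highest of each list in the shared region, and need not belong to a peak at the gene end. For MAP1S the peak of highest −log10 q in the gene-end windows had a fold of 3.49 in replicate 1 and 2.16 in replicate 2. For DOCK6 that peak had 3.47 in replicate 1 and 2.74 in replicate 2. At KCNN1 replicate 2 had no peak within 1 kb of an end. The same holds for HMG20B, AXL, CCNE1, NECTIN2, LHB, SIGLEC11, CIRBP, FAM174C and ZBTB32, named below. In each of these the shared region reached the window through replicate 1.

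Among the widest regions were some that joined neighbouring genes. A region of 12703 bp ran over CIRBP, a cold-inducible RNA-binding protein, and FAM174C, and another of 11112 bp over ZBTB32 and KMT2B, a histone methyltransferase. A width of at least 5 kb was seen in 103 regions.

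The 5 genes with the most peaks over their bodies were all over 150 kb long. SIPA1L3, a GTPase-activating protein for Rap, had 68 peaks in replicate 1 and 43 in replicate 2 over 301.2 kb. CACNA1A, the pore subunit of a neuronal calcium channel, had 50 and 37 over 300.04 kb. KDM4B, a histone demethylase, had 50 and 29 over 184.5 kb. GNG7, a G protein subunit, had 38 and 26 over 191.5 kb, and RYR1 37 and 23 over 153.9 kb. Both lists put SIPA1L3 first. Over the 1160 genes, Spearman's rho between gene length and body peaks was 0.75 in replicate 1 and 0.70 in replicate 2, as a description of these lists.

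Genes with a gene-end peak in 1 list alone show how far the lists diverge. In replicate 1 the strongest were DPP9, a dipeptidyl peptidase, with a −log10 q of 5.11, TMEM259 with 4.68 and NR2C2AP with 4.46. Replicate 2 had no peak in their gene-end windows. In replicate 2 the strongest were SMIM17 with 4.04, OR7D4, an odorant receptor, with 3.43, and APOC1 with 3.41. Replicate 1 had no peak at their ends.

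Gene lists were read against the 53.4% of all 1160 genes with a shared region at a gene end. The lists were drawn up by function or family, and they differ in gene length, which limits what a count shows. In the chromatin and transcription list, 37 of 53 genes (69.8%) had one, with a median length of 24.1 kb against 12.7 kb for all genes. NFIC ranked first, and others were HMG20B, an HMG-box protein of a histone deacetylase complex, with folds of 3.56 in replicate 1 and 2.53 in replicate 2, TCF3, an E protein, with 3.53 and 2.39, CEBPA, a differentiation factor, with 3.42 and 2.44, the AP-1 subunit JUND with 3.49 and 2.29, and DNMT1, the maintenance DNA methyltransferase, with 3.33 and 2.28. The remodeller ATPase SMARCA4 had no shared region at an end, although its body held 29 and 10 peaks.

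Kinases and small GTPase regulators had a shared region at an end in 24 of 36 genes (66.7%). DOCK6 led them, and AXL, a receptor tyrosine kinase, had 3.50 and 2.26, AKT2 3.11 and 2.28, STK11, the upstream kinase of AMPK, 3.38 and 2.096, and GSK3A 3.10 and 2.16. NOTCH3, a signalling receptor, had no peak at its ends and 11 and 5 over its body. Lipoprotein and lipid genes had one in 13 of 19 (68.4%), led by the transporter ABCA7 with 3.57 and 2.31 and with APOE at 3.47 and 2.11. DNA repair and cell cycle genes had one in 16 of 24 (66.7%), among them ERCC1, a nuclease subunit of excision repair, with 3.70 and 2.28, XRCC1, a scaffold of single-strand break repair, with 3.24 and 2.00, and CCNE1 with 3.08 and 2.44.

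Lists of housekeeping genes lay nearer the share of all genes. Ribosomal protein genes had one in 7 of 13 (53.8%). Mitochondrial ribosome and import genes had one in 4 of 9, led by TOMM40, the channel of the outer membrane, with 3.74 and 2.37. Respiratory chain genes had one in 5 of 12, led by UQCR11, a subunit of complex III, with 3.20 and 2.43. NDUFS7, NDUFA7 and NDUFB7, subunits of complex I, had a gene-end peak in replicate 1 alone.

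Immune and surface genes were mixed. In the list of NF-kB and innate immune genes, 15 of 34 (44.1%) had a shared region at an end. RELB had 3.66 and 2.51, NFKBIB, an inhibitor of NF-kB, 3.12 and 2.14, the atypical inhibitor BCL3 3.09 and 2.23, and IRF3, which drives interferon genes, 3.40 and 1.97. JAK3 had a gene-end peak in each list that did not join in a shared region at an end, and TYK2 and TGFB1 had one in replicate 1 alone. Adhesion and junction genes had one in 11 of 20. ICAM1, a ligand of leukocyte integrins, had 3.93 and 2.32, PVR, the poliovirus receptor, 3.10 and 2.24, and NECTIN2 3.34 and 2.08.

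Some clustered gene families were the least met. Most leukocyte receptors of their list and all its pregnancy-specific glycoprotein genes lie in the stretches without a peak given below. The stretch of the leukocyte receptors also holds genes of other kinds, such as RPS9. Whether tissue of expression had a part was not tested. A shared region at an end was seen in only 1 of 20 olfactory receptors (OR7G1, 3.06 and 2.49). It was seen in 4 of 37 leukocyte immunoglobulin-like receptors and 3 of 22 CEACAM and pregnancy-specific glycoprotein genes. The leukocyte receptors with one were SIGLEC16, SIGLEC11, SIGLEC9 and CD22, which all lie outside the LILR and KIR array. The CEACAM members were CEACAM1, with 3.20 and 2.27, CEACAM19 and CEACAM16. Among gonadotropin beta subunit genes, LHB had one of 7, with 3.35 and 2.27, and among cytochrome P450 genes 3 of 12 did, led by CYP4F22 with 3.30 and 2.81. Kallikreins, a clustered family of secreted serine proteases, had one in 7 of 15 (46.7%), and each of the 15 had a gene-end peak in at least 1 list, as 1006 of all 1160 genes (86.7%) did. KLK5 led with 3.23 and 2.42. Zinc finger genes with names outside the ZNF series had one in 7 of 24 (29.2%), led by ZC3H4 with 3.97 and 2.43.

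**Figure D5:**
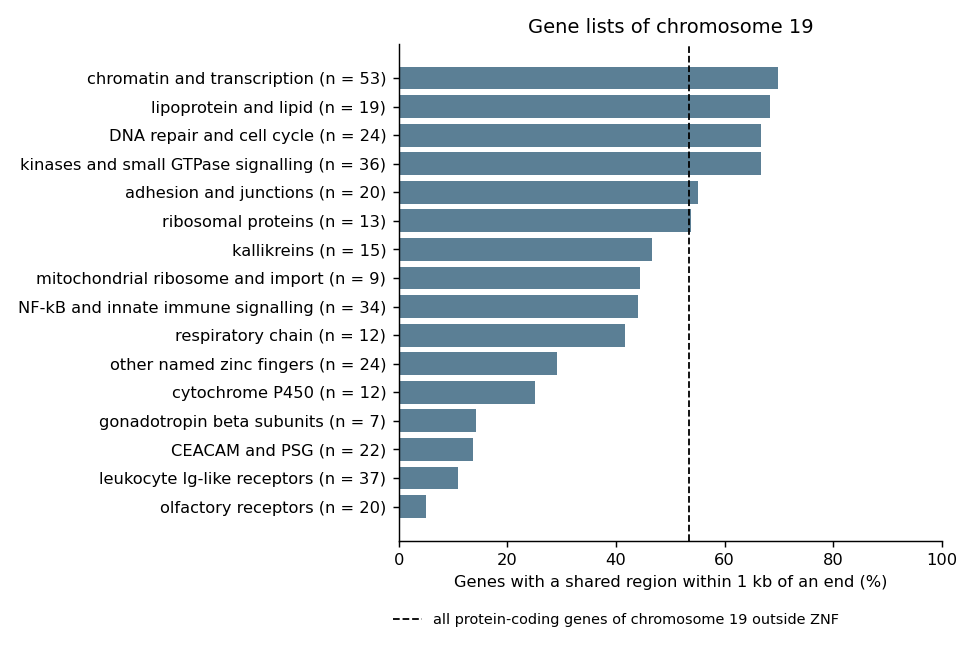
Bars give the share of each list's chromosome 19 genes with a shared region within 1 kb of a gene end (x axis, %), with the number of genes in brackets. The dashed line is the 53.4% of all 1160 protein-coding genes outside the ZNF series; the lists run from 69.8% for chromatin and transcription to 5.00% for olfactory receptors.

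The longest stretches without a peak in either list, apart from the centromere, held arrays of related genes. The stretch chr19:54024772-55084532 spanned 1059.8 kb and 42 protein-coding genes, which include the LILR, LAIR and KIR receptors of leukocytes. It also held genes that most cells use, such as RPS9, a ribosomal protein, CNOT3, a subunit of the deadenylase complex, and PRPF31, a splicing factor. The stretch chr19:42698219-43305003 spanned 606.8 kb and 10 pregnancy-specific glycoprotein genes. The stretch chr19:20052226-21210494 spanned 1158.3 kb with 9 ZNF genes and 1 other.

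LILR, KIR and PSG are 3 separate families, each with members similar to each other in sequence. The sources used here do not say how reads with several equal matches were counted, so the values of these genes are uncertain. RPS9, CNOT3 and PRPF31, which are of none of these families, lie in the same empty stretch as the LILR and KIR genes. The list of replicate 1 also held 3 peaks on further sequences named for chromosome 19, and that of replicate 2 held 0. The authors' reference thus held more than the main sequence. Whether those further sequences repeat genes of this stretch was not examined, so the values of RPS9, CNOT3 and PRPF31 are uncertain as well. The 36 promoters with sequence in the stretch of the leukocyte receptors had a median GC content of 57.2%, with a range of 43.3 to 78.3%. GGGCGG stood in 47.2% of them, against 65.9% of all promoters. Whether composition had a part in the empty stretch was not tested.

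Genes that encode no protein differed by kind. Of 142 miRNA genes of chromosome 19, 80 had a replicate 1 peak and 27 a replicate 2 peak within 1 kb of an end, and 30 (21.1%) a shared region. Over the genome the miRNA shares were 42.4%, 20.6% and 18.9%. The primate-specific C19MC array, whose 46 miRNA genes run over chr19:53666679-53762430 and are known from placenta, held 0 peaks of replicate 1 and 3 of replicate 2. Members of the array are similar in sequence, so this number is uncertain for the reason given for the LILR, KIR and PSG genes. Of 28 snoRNA genes, which guide RNA modification and mostly lie within host genes, 23 had a replicate 1 peak, 8 a replicate 2 peak and 9 (32.1%) a shared region, against 19.6%, 11.2% and 7.73% of snoRNA genes over the genome. All 7 tRNA genes had a replicate 1 peak, and 3 had a shared region, against 51.7% and 15.9% over the genome. Of 28 snRNA genes, 2 had a replicate 1 peak and none a replicate 2 peak, against 15.4% and 4.03% over the genome. Long non-coding RNA genes had a shared region at 133 of 444 (29.96%), against 18.7% over the genome. Transcribed pseudogenes had one at 16 of 53 (30.2%), against 9.09%, and other pseudogenes at 33 of 473 (6.98%), against 4.19%. Protein-coding genes outside the ZNF series stood at 84.1% in replicate 1, 54.8% in replicate 2 and 53.4% for shared regions.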

How the data were processed

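The authors deposited 1 broad peak list for each PD-L1 ChIP replicate. The submitters' processing notes name hg38, Bowtie2 2.2.9 and MACS2 2.1.1 without saying what each did, and the sources used here give no caller settings. Per the deposited broad peak layout, column 7 holds the authors' fold enrichment ratio and columns 8 and 9 hold their −log10 p and −log10 q values. These describe and rank peaks within a list. Reads were not used here, so depth is unknown, and the inputs entered through the authors' calls alone. The word Merge stands in the peak names of replicate 2, and the sources used here do not explain it. Labels and the design text number the replicates as independent biological samples.

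Genes and promoters came from RefSeq tables of GRCh38.p14, the build of hg38. Rows of alternate or unplaced sequences were left out (58 on chromosome 19, of which 41 protein-coding). Promoters matched 966 of 1160 genes (83.3%), and 92.8% of their starts lay within 1 kb of the gene's outer end. Bins ran from the chromosome's first base to the last annotated gene end, and peaks and genes were placed by their centres. Python 3.11.15, numpy 2.4.6, pandas 2.3.3, scipy 1.17.1, statsmodels 0.14.6 and matplotlib 3.10.9 were used. Overlap functions were tested on simulated data.

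Members, lists and rules were chosen with earlier results of these data known. With 1 list per replicate no test over samples was possible, and values are given per replicate. Named genes were the 10 whose ends met the leading shared regions (mean of the fold ranks), the best of each list and of the 3 densest bins, the holders of the 5 best regions away from gene ends, those at the 3 widest regions, the 5 with most peaks, and the 3 strongest seen in each list alone. Some results under this rule are not reported here. Other genes named as examples of a list, bin or stretch were chosen after their values were seen. Alternatives covered thresholds, list lengths, windows, overlap, bins and the ZNF rule. The split into starts and far ends, GC groups, multi-bin stretches and the omission of the bin from 54 to 55 Mb were added after seeing the data.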

Additional observations from a re-analysis of the deposited data

How the results depend on the processing

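Of 46 other settings chosen at the outset, 32 stayed within the spread of the replicates (or, for gene counts, within 1.5 times), 14 moved the value and none turned its direction. This count is a weak guide. For the arm ratio, the rho and the gene-end share, leaving out a replicate stays within that spread by construction. For the overlap share the spread (SD) was 20.8 points, so 42.6% with equal numbers of peaks counted as unmoved. The mean share of peaks that overlap the other list was 49.5%, and fell to 22.2% among peaks whose −log10 q reached 2, 25.3% with the 50% of peaks of higher fold and 15.8% with a reciprocal overlap of 50%; it has no value without either replicate. The short to long arm ratio was 1.09, and was 1.15 and 1.34 under those q and fold thresholds. The rho of peaks and genes was 0.59, and was 0.45 without bins of 10 or more ZNF genes, 0.50 per Mb outside ZNF genes and 0.67 without the bin from 54 to 55 Mb, which was chosen after seeing the data. The share of peaks at gene ends was 19.1%, and was 14.8% with windows of 500 bp, 43.9% with windows of 5 kb and 14.8% by peak centres. Genes with a shared region at an end numbered 619, against 154 with that q threshold, 184 with that fold threshold and 182 with reciprocal overlap. Leaving out either replicate gave 636 to 976 genes, an arm ratio of 1.05 to 1.12, a rho of 0.55 to 0.63 and a gene-end share of 17.8% to 20.5%. The stricter thresholds leave fewer peaks by construction; the cause of the other changes was not tested. No paired analysis was possible because the results come from no test and each replicate is 1 peak list. Depth is unknown, so a gene without a peak is a gene with no call at the authors' threshold.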

Other observations

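The last bin, from 58 Mb to the final gene at the telomere, showed the largest gap between the replicates in sharing among bins with at least 20 peaks in each list. There 24 of 25 replicate 2 peaks (96.0%) overlapped a replicate 1 peak, while 19 of 67 replicate 1 peaks (28.4%) overlapped one of replicate 2. Median fold went up with the number of genes in replicate 1 bins, with a Spearman's rho of 0.48 over 50 bins, and not in replicate 2, with -0.12 over 51.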
